A study of Homo sapiens with 33 samples.

Results

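Glycolysis and hypoxia response genes were followed in 3 head and neck squamous cell carcinoma (HNSCC) cell lines, SCC1, SCC6 and SCC25, with or without cetuximab. The set is a list of 36 gene symbols fixed by name, all of which were found among the 56470 gene symbols of the count table. It holds 2 glucose carriers, 15 enzymes of glycolysis, 2 regulators of phosphofructokinase, 6 genes of lactate and pyruvate handling, 2 carbonic anhydrases, 8 further genes of the hypoxia response, and HIF1A.

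Glycolysis turns glucose into pyruvate through a fixed order of enzymes, several of which exist as isozymes made by different genes. Tumour cells commonly reduce much of that pyruvate to lactate and export it, even with oxygen present. When oxygen is low, the HIF1A protein is no longer hydroxylated and destroyed, and with its partner it binds DNA at the letters ACGTG or GCGTG near many of these genes and raises their transcription. Growth factor receptors, EGFR among them, also act on glucose uptake and glycolysis through the MAPK and PI3K pathways.

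Cetuximab is an antibody that binds the extracellular part of EGFR. Cells were given 100 nM cetuximab or phosphate-buffered saline (PBS), beginning a day after they were seeded, with fresh medium daily, and RNA was sequenced each day. There were 33 libraries: PBS on days 0 to 5 in each line (6 libraries per line), and cetuximab on days 1 to 5 in SCC1 and SCC25. Cetuximab-treated SCC6 also had 5 libraries, but its labels give day 2 for 2 of them, which are named 2a and 2b after their order in the count table, and day 1 for none. All groups are established cultures with no added gene or allele, and each line is one model of the disease. Per the labels SCC25 and SCC1 grew in DMEM with serum and hydrocortisone, and SCC6 in high glucose DMEM with non-essential amino acids. Cell line and medium therefore cannot be told apart where SCC6 is compared with another line. The paper's methods instead name DMEM and Ham's F12 with serum for every line. There was 1 library per line, treatment and day, so days stand in for replicates and the errors below hold both the spread between libraries and any change over days.

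Total counts per library on days 1 to 5 ran from 28508758 to 80727478, the highest being SCC6 with cetuximab on days 4 and 5. The 8 genes used here as a readout of ERK signalling fell in 7, 7 and 8 cases in SCC1, SCC6 and SCC25. Epithelial markers were high in SCC1 and SCC25, whereas in SCC6 the basal keratins KRT5 and KRT14 were near absent (1.78 to 3.24 and 1.87 to 6.61 CPM, counts scaled to a common library size, with PBS on days 1 to 5) while KRT17 stood at 391 to 850 and CDH1 at 561 to 906. The summed epithelial markers went from 1828 to 3006 CPM with PBS to 6546 to 10246 with cetuximab in SCC1. Keratins made up much of that sum, with mean KRT5 going from 548 to 3259 CPM and KRT17 from 515 to 2830. Of the 8 markers 6 rose there and 1 fell (EPCAM, from 260 to 156 CPM). In SCC6 3 rose and 2 fell (EPCAM and DSG3), and in SCC25 2 rose and 1 fell (SFN). The summed fibroblast markers were higher with cetuximab in every line (21 to 32.9 against 50.1 to 146 CPM in SCC1, 2.97 to 5.08 against 9.04 to 115 in SCC6, 148 to 197 against 254 to 407 in SCC25). Of the fibroblast markers with enough counts, 4 of 4 rose in SCC1 and 2 of 2 in SCC6 (COL1A1 and PDGFRB), and 4 of 8 rose and 1 fell in SCC25. With PBS, DCN in SCC1 and PDGFRB in SCC6 stood at only 0.042 to 0.203 and 0.0312 to 0.133 CPM. They had enough counts only through their cetuximab libraries, so for them no fall could have been called. The part of either marker list in the results below was not tested. A run code in the sample titles was shared by only 1 PBS and the 5 cetuximab libraries in SCC1, by 4 PBS and 3 cetuximab libraries in SCC6, and by 5 PBS and 2 cetuximab libraries in SCC25. Among the glycolysis and hypoxia genes, the SCC6 PBS library of day 1 and the cetuximab-treated SCC25 library of day 3 stood apart most often, and counts without each are given beside the results.

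Levels are CPM scaled with TMM factors, and for the tests each line was fitted by edgeR's quasi-likelihood method. A gene is said to rise or fall where its Benjamini-Hochberg adjusted p, taken over all genes tested, was under 0.05. In SCC1, 24 of the 36 genes changed with cetuximab, 9 upward and 15 downward, a share of 66.7%. Over all 17984 genes tested in SCC1, 44.8% changed (22.7% upward and 22.1% downward). In SCC6, 13 of the 33 that could be tested changed, 4 upward and 9 downward, against 30.1% of all genes (15.6% upward and 14.6% downward). CA9, CA12 and EGLN3 had too few counts there. In SCC25, 9 of 36 changed, 1 upward and 8 downward, against 18.3% of all genes (8.8% upward and 9.5% downward). In these fits the share that fell thus stood above the background in each line, and the share that rose was near it in SCC1 and under it in SCC6 and SCC25. Sizes were small: the median log2 change of the genes was -0.13, -0.03 and -0.08 in SCC1, SCC6 and SCC25, beside 0.02, 0.00 and 0.01 over all genes. The CPM ranges of the 2 treatments did not overlap for 18 of 36 genes in SCC1 (31.3% of all genes), 10 of 33 in SCC6 (19.1%) and 8 of 36 in SCC25 (14.8%).

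**Figure D1:**
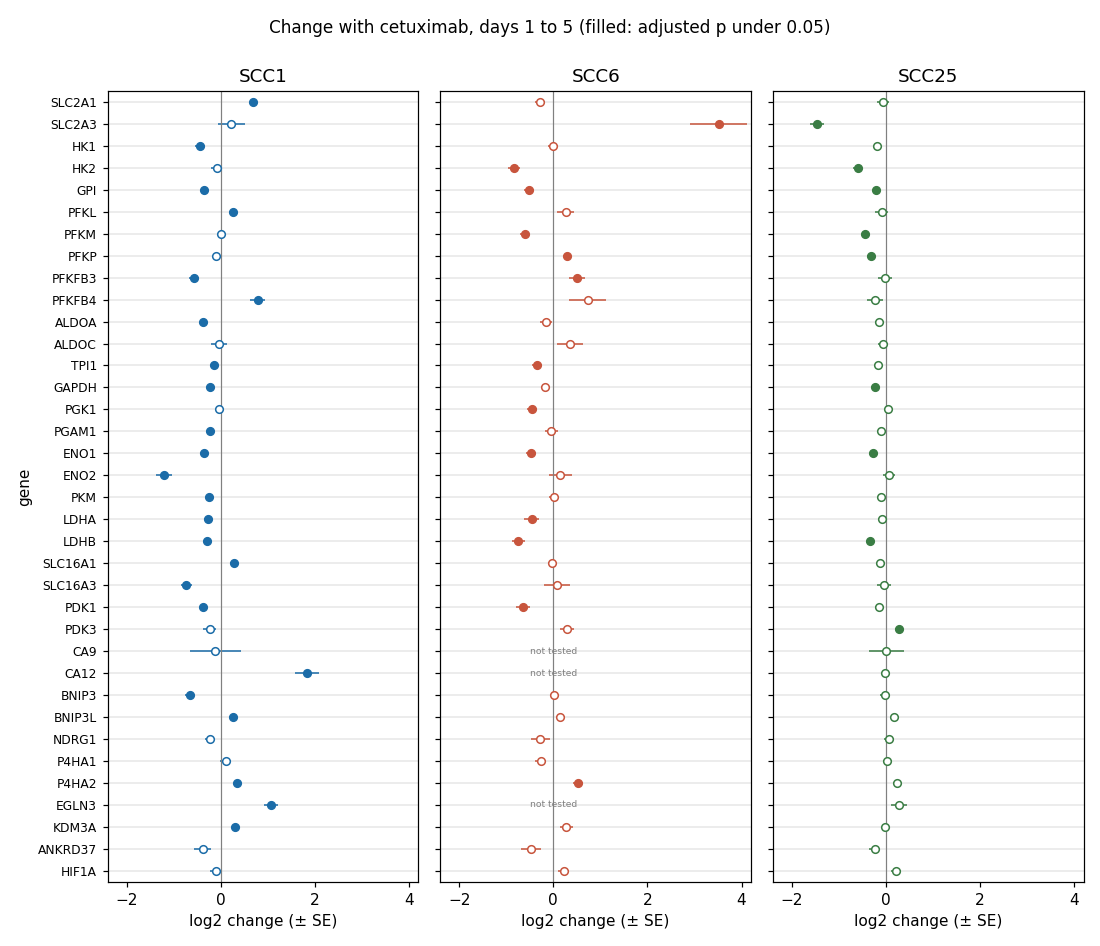
Log2 change with cetuximab (x axis, ± SE) of the 36 genes (y axis, in order of their roles) in SCC1, SCC6 and SCC25, from 5 PBS and 5 cetuximab libraries per line on days 1 to 5. Filled points have an adjusted p under 0.05. Most filled points of the glycolytic enzymes lie left of 0 in every line, and SLC2A3 in SCC6 lies farthest to the right at 3.51.

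Part of these calls depended on single libraries or on the run code. With the run code as a covariate 16, 13 and 5 genes changed in SCC1, SCC6 and SCC25 (23.3%, 30.6% and 7.42% of all genes), and within the single run shared by both treatments 15, 13 and 8 did (17.4%, 28.5% and 9.38% of all genes), where the lone PBS library of SCC1 is assumed to vary like the cetuximab ones. In SCC1 the 9 calls lost within that run were PFKL, TPI1, GAPDH, PGAM1, PKM, SLC16A1, SLC16A3, BNIP3L and P4HA2. Without the SCC6 PBS library of day 1, 16 genes changed in SCC6, and 16 did without both libraries labelled day 2. In SCC25, leaving out the cetuximab library of day 3 gave 9 changed genes, and leaving out the PBS library of day 2 gave 5. With the day as a paired block the count in SCC25 was 14 (26.8% of all genes).

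By role, the largest group was the 15 glycolytic enzymes. In SCC1 9 of them fell, 1 rose and 5 did not pass the test (22.1% of all genes fell). In SCC6 6 fell, 1 rose and 8 did not pass (14.6% of all genes fell). In SCC25 6 fell, none rose and 9 did not pass (9.5% of all genes fell). The run code as a covariate ended the calls of HK1, GAPDH, PKM and PFKL in SCC1 and of TPI1 in SCC6. For SCC25 it ended those of GPI, PFKP and GAPDH. The 6 genes of lactate and pyruvate handling gave 4 falls and 1 rise in SCC1, 3 falls in SCC6, and 1 fall and 1 rise in SCC25. With that covariate the calls of SLC16A1 and SLC16A3 in SCC1, LDHA in SCC6, and LDHB and PDK3 in SCC25 were lost. Of the 8 further hypoxia genes, 4 rose and 1 fell in SCC1 (22.7% of all genes rose). The rises of BNIP3L and P4HA2 there were lost with the covariate. In SCC6 1 of the 7 tested rose, near the share of all genes, and in SCC25 none of the 8 passed edgeR's test.

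Across the lines, GPI, ENO1 and LDHB fell in all 3. Another 10 genes changed in 2 lines, 17 in 1 line, and 6 in none (ALDOC, CA9, NDRG1, P4HA1, ANKRD37 and HIF1A). SLC2A3, PFKP and PFKFB3 changed in opposite directions in a pair of lines. These counts describe where calls fell over days 1 to 5. They were not made over all genes, so they have no background and say nothing about how unusual such sharing is. The difference between lines was tested on its own, in a joint model of the 30 libraries from days 1 to 5, and 15 of the 36 genes differed between lines in their change (26.1% of all 21414 genes tested).

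Glucose enters cells through facilitative carriers. SLC2A1 (GLUT1) is the widespread one, and SLC2A3 (GLUT3) is a carrier of high affinity known best from neurons. In SCC1, SLC2A1 stood at 171, 169, 167, 189, 187 and 205 CPM with PBS on days 0 to 5 and at 251, 280, 297, 306 and 336 with cetuximab on days 1 to 5. In SCC6 the same carrier read 573, 635, 480, 523, 517 and 519 with PBS and 368, 416, 453, 528 and 465 with cetuximab in libraries 2a, 2b and days 3 to 5, the order used for SCC6 throughout. For SCC25 the values were 175, 181, 202, 194, 227 and 271 with PBS and 227, 230, 161, 216 and 204 with cetuximab. All cetuximab libraries of SCC1 lay above all its PBS libraries, while the treatments overlapped in the other two lines. SLC2A1 rose in SCC1 (log2 change 0.69 ± 0.08 (SE), edgeR adjusted p = 2.4e-05). Its change was log2 change -0.28 ± 0.11 (SE), edgeR adjusted p = 0.075 in SCC6 and log2 change -0.06 ± 0.12 (SE), edgeR adjusted p = 0.79 in SCC25. The change differed between lines (adjusted p = 7.2e-05 by edgeR's F test).

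SLC2A3 gave the largest change of any of the 36 genes. In SCC6 it stood at 2.59, 1.9, 2.84, 5.87, 7.25 and 9.75 CPM with PBS and at 14.1, 27.7, 65.7, 86.2 and 124 with cetuximab. SCC25 had 6.18, 5.11, 5.87, 7.31, 6.31 and 6.32 with PBS and 2.39, 2.11, 2.83, 2.22 and 1.74 with cetuximab. SCC1 held 0.327, 0.28, 0.202, 0.126, 0.202 and 0.301 and 0.272, 0.18, 0.226, 0.368 and 0.241. The lowest cetuximab library of SCC6 was above its highest PBS library, and in SCC25 the order was the reverse, again without overlap. In SCC6 the mean went from 5.52 ± 3.21 CPM to 63.5 ± 44.3 CPM (SD, n = 5 each, days 1 to 5), a rise by edgeR (log2 change 3.51 ± 0.60 (SE), edgeR adjusted p = 0.0012). It was called without any one of the 10 libraries, with log2 changes from 3.14 to 3.80, and within the run shared by both treatments the log2 change was 2.48. SLC2A3 fell in SCC25, from 6.18 ± 0.8 to 2.26 ± 0.395 CPM (log2 change -1.46 ± 0.14 (SE), edgeR adjusted p = 7.3e-05). Raw counts in SCC1 were between 6 and 16 per library, and up to 64.5% of the reads given to the gene and its 3 pseudogene rows went to the pseudogenes, so a change was not detectable at this depth in SCC1. Fibroblast markers were higher in the same SCC6 libraries. COL1A1, a fibrillar collagen, went from 3 ± 0.918 to 40 ± 35.8 CPM, with 88.4 in the highest library (log2 change 3.72). COL3A1 went from 0.0314 to 5.38, with 17.8 in the highest library, and PDGFRB from 0.0312 to 0.133 with PBS to 0.567 to 8.37 with cetuximab, while COL1A2, DCN and LUM stayed at or under 0.403 in both. Their part in the SLC2A3 result was not tested. SLC2A3 changed differently between lines (adjusted p = 3.9e-07 by edgeR's F test).

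Hexokinases phosphorylate glucose on entry. HK1 is the housekeeping isozyme and HK2 the inducible one, and the falls of the 2 were called in different lines. HK2 in SCC6 stood at 180, 188, 208, 226, 195 and 186 CPM with PBS and 93.9, 120, 151, 104 and 103 with cetuximab. In SCC25 it read 43.5, 45.9, 51.8, 55.4, 56.5 and 64.9 with PBS and 32, 35, 40.1, 35.6 and 39.6 with cetuximab. SCC1 had 79.8, 92.3, 97.1, 115, 111 and 128 and 79.6, 104, 120, 106 and 97. In SCC6 and SCC25 every cetuximab library lay under every PBS library, whereas in SCC1 the ranges overlapped. HK2 fell in SCC6 (log2 change -0.83 ± 0.13 (SE), edgeR adjusted p = 0.00062) and in SCC25 (log2 change -0.60 ± 0.09 (SE), edgeR adjusted p = 0.0014), and was not called in SCC1 (log2 change -0.09 ± 0.11 (SE), edgeR adjusted p = 0.53). HK1 fell in SCC1, from 266 ± 43.8 to 195 ± 18.2 CPM (log2 change -0.44 ± 0.11 (SE), edgeR adjusted p = 0.005), a call lost with the run code as a covariate or with the PBS library of day 0 added. Its log2 changes were -0.01 in SCC6 and -0.18 in SCC25, where HK1 was lower with cetuximab in 5 of 5 same-day comparisons but did not pass. Both isozymes differed between lines in their change (adjusted p = 0.0048 for HK2 and 0.035 for HK1, edgeR's F test).

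Phosphofructokinase commits sugar to glycolysis and exists as liver (PFKL), muscle (PFKM) and platelet (PFKP) subunits. PFKM in SCC6 stood at 80.7, 72.1, 61.2, 59.5, 56.9 and 56 CPM with PBS and 40, 41.7, 34.2, 44.9 and 41.7 with cetuximab. In SCC25 it read 77.3, 79.3, 80.8, 78.5, 72.5 and 73.4 and 61.8, 59.1, 57.3, 51.6 and 53.8. SCC1 had 61.7, 62.9, 76.2, 74, 70.9 and 75.9 and 68.7, 71.2, 71.3, 73.7 and 72.9. The pattern was that of HK2, with no overlap in SCC6 and SCC25 and full overlap in SCC1. PFKM fell in SCC6 (log2 change -0.61 ± 0.10 (SE), edgeR adjusted p = 0.0013) and SCC25 (log2 change -0.44 ± 0.06 (SE), edgeR adjusted p = 0.00072), with a log2 change of 0.00 ± 0.06 in SCC1, and the change differed between lines (edgeR's F test, adjusted p = 0.00023).

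PFKP was the subunit with opposite calls. SCC6 had 250, 261, 232, 232, 224 and 228 CPM with PBS and 247, 286, 314, 321 and 294 with cetuximab. In SCC25 it read 95.5, 98.9, 110, 100, 103 and 107 and 85.6, 87.5, 65.9, 90.3 and 90.3. SCC1 gave 125, 143, 154, 153, 151 and 148 and 126, 145, 134, 133 and 153. In SCC6 only library 2a fell inside the PBS range, and in SCC25 all cetuximab libraries lay under the PBS range, the lowest being that of day 3. PFKP rose in SCC6 (log2 change 0.29 ± 0.09 (SE), edgeR adjusted p = 0.027) and fell in SCC25 (log2 change -0.32 ± 0.08 (SE), edgeR adjusted p = 0.021). The SCC6 call was lost without 7 of the 10 libraries in turn and with the day as a paired block, and the SCC25 call without the PBS library of day 2 or with the run code as a covariate. The difference between lines was called (adjusted p = 0.00021, edgeR's F test). PFKL rose in SCC1 alone (log2 change 0.25 ± 0.08 (SE), edgeR adjusted p = 0.025), a call lost without 4 of the 10 libraries in turn and within the shared run, and its change did not pass the test between lines (adjusted p = 0.35 by edgeR).

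**Figure D2:**
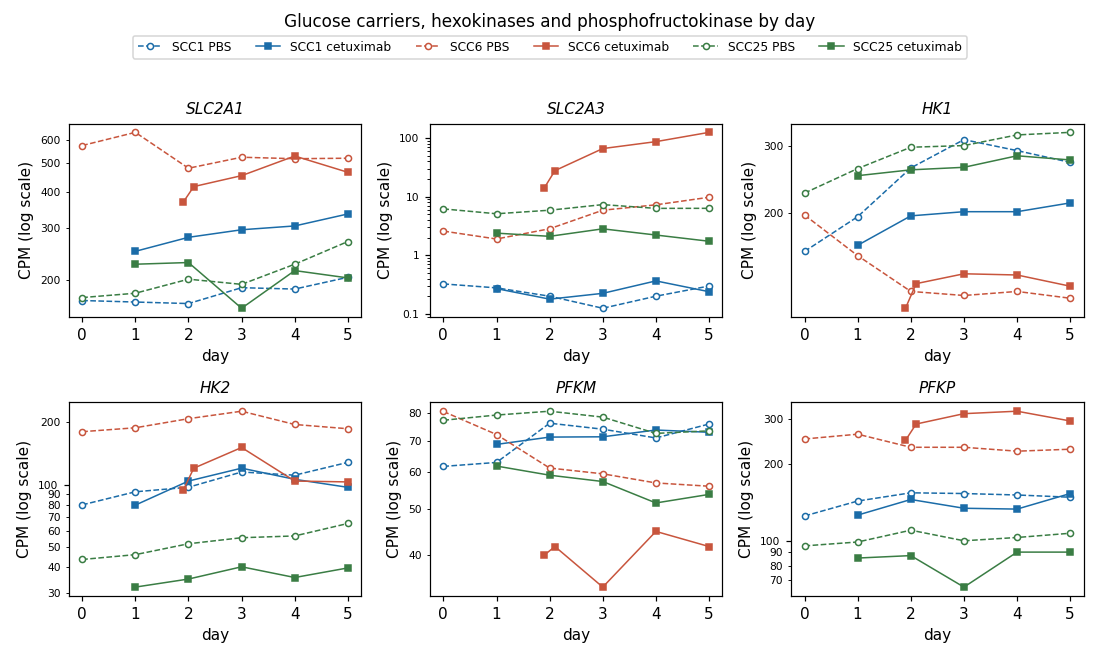
CPM on a log scale (y axis) by day (x axis) of SLC2A1, SLC2A3, HK1, HK2, PFKM and PFKP in SCC1, SCC6 and SCC25, with 1 library per point, open circles for PBS and filled squares for cetuximab. SCC6 libraries 2a and 2b are drawn just left and right of day 2. SLC2A3 in SCC6 reaches 124 CPM with cetuximab on day 5, beside 9.75 with PBS.

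PFKFB3 and PFKFB4 make and break down fructose 2,6-bisphosphate, the main activator of phosphofructokinase. PFKFB3 in SCC1 stood at 36.5, 42.9, 49.3, 57.6, 60.7 and 56.4 CPM with PBS and 29.3, 34.5, 38, 36.4 and 40.1 with cetuximab. SCC6 gave 69, 60.9, 50.4, 47.1, 52.3 and 56.5 and 53.3, 60.4, 73.3, 98.4 and 99.5. SCC25 had 46.2, 48.6, 53.6, 60.7, 69.4 and 83.8 and 52.3, 55.7, 57.6, 69.5 and 77. On days 1 to 5 the treatments did not overlap in SCC1, and in SCC6 the 2 highest values were the cetuximab libraries of days 4 and 5. PFKFB3 fell in SCC1 (log2 change -0.57 ± 0.10 (SE), edgeR adjusted p = 0.00056) and rose in SCC6 (log2 change 0.51 ± 0.17 (SE), edgeR adjusted p = 0.04). The rise in SCC6 was lost without 7 of the 10 libraries in turn, with the day as a paired block, with the run code as a covariate and within the shared run. In SCC25 both treatments had higher values on later days, and the log2 change was -0.02 ± 0.15. The change differed between lines (adjusted p = 0.0012 by edgeR's F test).

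PFKFB4 went the other way in SCC1. It stood there at 8.89, 10.8, 8.98, 7.56, 5.98 and 7.18 CPM with PBS and 16.3, 14.9, 12.7, 13 and 12.4 with cetuximab. SCC6 had 10.8, 10.5, 6.1, 4.9, 3 and 1.54 and 10.9, 9.42, 6.52, 9.59 and 7.53. SCC25 had 35.4, 27.3, 26.5, 19.1, 15.9 and 18.7 and 22.5, 22.4, 14, 16.3 and 17.5. With PBS the gene dropped over days in SCC6 and SCC25, so that the treatments were closest early in SCC6 and farthest apart on day 5. PFKFB4 rose in SCC1 (log2 change 0.78 ± 0.15 (SE), edgeR adjusted p = 0.00084), and its change was log2 change 0.73 ± 0.39 (SE), edgeR adjusted p = 0.18 in SCC6 and log2 change -0.22 ± 0.17 (SE), edgeR adjusted p = 0.42 in SCC25.

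Of the enzymes after hexokinase, GPI (which turns glucose 6-phosphate into fructose 6-phosphate), ENO1 (the enolase that makes phosphoenolpyruvate) and LDHB (the heart-type lactate dehydrogenase subunit) fell in all 3 lines. The sequences around their transcription starts are shown because these genes moved together, with that of LDHA, the muscle-type subunit, for comparison. Each is 300 bases, 250 before and 50 after the start, from RefSeq on GRCh38.p14, read 5′ to 3′ on the gene's strand. Capitals mark ACGTG and GCGTG, the pair of forms of the HIF core letters, on either strand, where CACGT and CACGC are their reverse complements.
ENO1, minus strand, chr1:8878637-8878936: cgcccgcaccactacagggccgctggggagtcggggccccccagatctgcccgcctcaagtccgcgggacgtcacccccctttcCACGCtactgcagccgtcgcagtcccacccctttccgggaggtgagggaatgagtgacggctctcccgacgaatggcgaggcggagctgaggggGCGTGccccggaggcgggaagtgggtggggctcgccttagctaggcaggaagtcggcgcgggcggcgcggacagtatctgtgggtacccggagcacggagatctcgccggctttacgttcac
GPI, plus strand, chr19:34364742-34365041: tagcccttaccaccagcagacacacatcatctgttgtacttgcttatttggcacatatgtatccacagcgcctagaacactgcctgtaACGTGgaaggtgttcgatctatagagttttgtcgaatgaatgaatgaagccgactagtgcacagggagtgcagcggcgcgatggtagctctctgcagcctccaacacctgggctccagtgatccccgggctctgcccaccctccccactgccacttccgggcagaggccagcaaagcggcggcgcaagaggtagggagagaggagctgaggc
LDHB, minus strand, chr12:21657793-21658092: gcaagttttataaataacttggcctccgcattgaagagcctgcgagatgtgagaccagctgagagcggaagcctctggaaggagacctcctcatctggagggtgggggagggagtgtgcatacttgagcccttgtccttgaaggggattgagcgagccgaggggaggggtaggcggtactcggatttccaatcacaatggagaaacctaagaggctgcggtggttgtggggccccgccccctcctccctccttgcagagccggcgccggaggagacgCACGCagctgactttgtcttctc
LDHA, plus strand, chr11:18394313-18394612: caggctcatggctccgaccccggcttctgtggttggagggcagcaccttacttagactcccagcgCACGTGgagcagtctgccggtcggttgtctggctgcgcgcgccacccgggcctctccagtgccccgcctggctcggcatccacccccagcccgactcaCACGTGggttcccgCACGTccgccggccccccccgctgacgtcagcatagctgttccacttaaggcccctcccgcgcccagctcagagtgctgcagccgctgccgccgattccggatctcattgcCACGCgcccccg
ENO1 had 2 GCGTG matches, GPI 1 ACGTG match and LDHB 1 GCGTG match, whereas LDHA had 5 ACGTG matches and 1 GCGTG match. Matches were counted per strand, and the 2 CACGTG of LDHA each match ACGTG on both strands, so its 5 matches lie at fewer places. RefSeq promoters were matched for 32 of the 36 genes, without SLC2A3, SLC16A1, BNIP3L and NDRG1. ACGTG, searched on both strands, was found in 13 of the 32 (40.6%), beside 21.4% of all 35116 promoters of this length. GCGTG was found in 16 (50%, beside 36.5%), either of these in 23 (71.9%, beside 48.4%), and CACGTG, which contains ACGTG, in 5 (15.6%, beside 7.26%). The genes' promoters were also richer in G and C, with a median of 69.7% beside 58.7% (the shares describe letters in these windows and not binding).

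GPI in SCC1 stood at 191, 205, 203, 216, 223 and 225 CPM with PBS and 179, 170, 162, 169 and 153 with cetuximab. The SCC6 libraries held 530, 500, 424, 423, 426 and 364 and 340, 311, 294, 299 and 269. SCC25 had 265, 276, 299, 268, 296 and 310 and 255, 261, 226, 264 and 261. On days 1 to 5 no cetuximab library reached the PBS range in any of the lines. GPI fell in SCC1 (log2 change -0.35 ± 0.05 (SE), edgeR adjusted p = 0.00014), SCC6 (log2 change -0.52 ± 0.10 (SE), edgeR adjusted p = 0.003) and SCC25 (log2 change -0.20 ± 0.06 (SE), edgeR adjusted p = 0.036). The call in SCC25 was lost without 9 of the 10 libraries in turn, with log2 changes from -0.22 to -0.15, and with the run code as a covariate, so it rests near the threshold.

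ENO1 in SCC1 stood at 1431, 1525, 1673, 1733, 1691 and 1585 CPM with PBS and 1306, 1267, 1317, 1260 and 1201 with cetuximab. For SCC6 the values were 1075, 1028, 862, 911, 933 and 754 and 738, 712, 644, 641 and 546. SCC25 had 2197, 2423, 2627, 2457, 2467 and 2551 and 2079, 2162, 1897, 2146 and 2103. Again the ranges of days 1 to 5 did not overlap in any line. ENO1 fell in SCC1 (log2 change -0.36 ± 0.05 (SE), edgeR adjusted p = 5.7e-05), SCC6 (log2 change -0.47 ± 0.11 (SE), edgeR adjusted p = 0.0079) and SCC25 (log2 change -0.28 ± 0.05 (SE), edgeR adjusted p = 0.0034). These 3 calls held without each library in turn and under every other setting tried, the run code included, other than a minimum size of 1 on the log2 scale. Its change did not pass the test between lines (adjusted p = 0.38, edgeR's F test).

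LDHB in SCC1 stood at 490, 492, 467, 515, 502 and 522 CPM with PBS and 422, 409, 419, 405 and 367 with cetuximab. In SCC6 it read 525, 498, 637, 658, 733 and 691 and 486, 427, 397, 327 and 306. SCC25 had 558, 596, 572, 573, 536 and 470 and 439, 434, 493, 421 and 400. In SCC6 the treatments parted with time, PBS going up and cetuximab down. The run code changed after day 1 with PBS and after day 3 with cetuximab, so run and day cannot be fully told apart there. LDHB fell in SCC1 (log2 change -0.29 ± 0.05 (SE), edgeR adjusted p = 0.00039), SCC6 (log2 change -0.74 ± 0.14 (SE), edgeR adjusted p = 0.0026) and SCC25 (log2 change -0.33 ± 0.07 (SE), edgeR adjusted p = 0.0082), where the call was lost with the run code as a covariate. The fall differed between lines (adjusted p = 0.038 by edgeR's F test), and was deepest in SCC6. On same-day comparison GPI, ENO1 and LDHB, and also TPI1, were lower with cetuximab in 14 of 14.

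**Figure D3:**
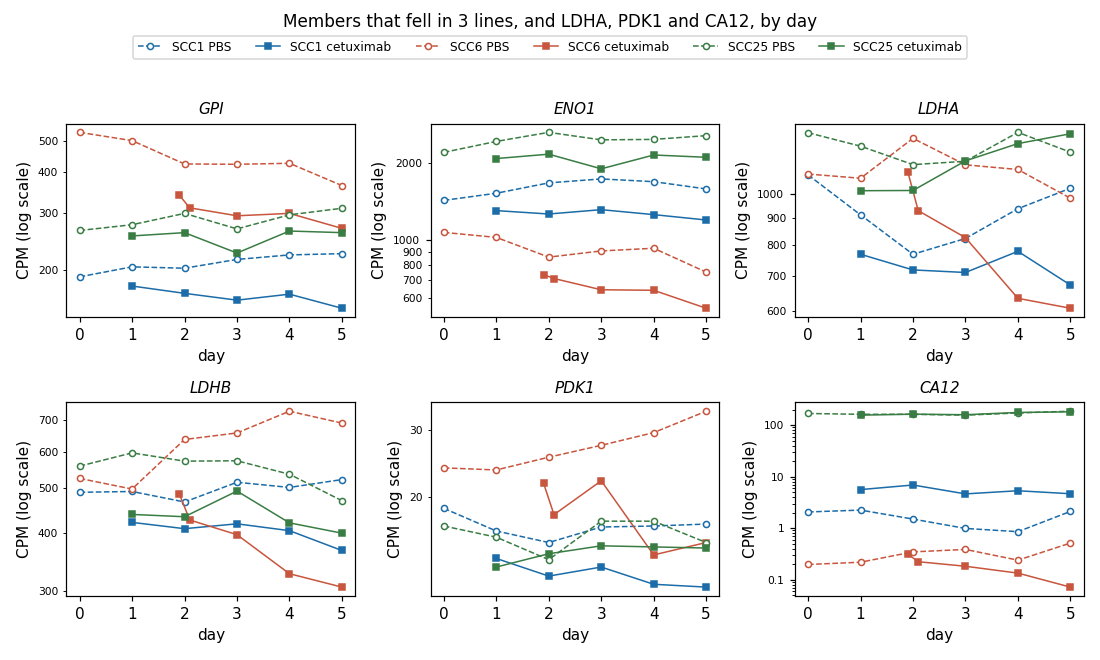
CPM on a log scale (y axis) by day (x axis) of GPI, ENO1, LDHA, LDHB, PDK1 and CA12 in SCC1, SCC6 and SCC25, 1 library per point, open circles for PBS and filled squares for cetuximab. SCC6 libraries 2a and 2b are drawn just left and right of day 2. The cetuximab lines of GPI, ENO1 and LDHB run under the PBS line of the same day in every cell line, down to 306 CPM for LDHB in SCC6 on day 5 beside 691 with PBS.

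Other enzymes of the pathway fell mostly in SCC1. ALDOA, the main aldolase, went there from 1094 ± 82.9 to 834 ± 25.1 CPM (log2 change -0.38 ± 0.05 (SE), edgeR adjusted p = 0.0001), PGAM1, the phosphoglycerate mutase, from 482 ± 22 to 408 ± 15.2 (log2 change -0.23 ± 0.05 (SE), edgeR adjusted p = 0.0015), and PKM, the pyruvate kinase, from 2764 ± 179 to 2291 ± 96.2 (log2 change -0.26 ± 0.05 (SE), edgeR adjusted p = 0.0013). None of these passed in SCC6 or SCC25, with log2 changes from -0.16 to 0.01. TPI1, the triose phosphate isomerase, fell in SCC1 (log2 change -0.15 ± 0.04 (SE), edgeR adjusted p = 0.014) and in SCC6 (log2 change -0.35 ± 0.11 (SE), edgeR adjusted p = 0.028). The SCC6 call of TPI1 was lost without 5 of the 10 libraries in turn, with the run code as a covariate, within the shared run and without the filter on low counts. PGK1, the phosphoglycerate kinase, fell in SCC6 alone, from 368 ± 20.3 to 272 ± 37.4 CPM (log2 change -0.45 ± 0.10 (SE), edgeR adjusted p = 0.007), with log2 changes of -0.04 and 0.05 in SCC1 and SCC25 and a difference between lines (adjusted p = 0.003, edgeR's F test). GAPDH, the glyceraldehyde phosphate dehydrogenase that is often taken as a reference gene, was itself lower in SCC1 (2644 ± 132 to 2236 ± 147 CPM, log2 change -0.23 ± 0.05 (SE), edgeR adjusted p = 0.0034) and in SCC25 (2931 ± 164 to 2498 ± 203 CPM, log2 change -0.24 ± 0.07 (SE), edgeR adjusted p = 0.027). The SCC25 call was lost without 4 of the 10 libraries in turn and with the run code as a covariate. With that covariate the SCC1 calls of GAPDH and PKM were lost too. ALDOC, the brain-type aldolase, passed in no line, with log2 changes of -0.04, 0.36 and -0.06 in SCC1, SCC6 and SCC25.

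ENO2, the enolase isozyme of neurons, did not move with ENO1 outside SCC1. It stood in SCC1 at 9.52, 8.11, 10.6, 11, 10.3 and 14 CPM with PBS and 6.33, 4.89, 4.64, 3.31 and 4.19 with cetuximab. SCC6 had 4.75, 6.67, 5.23, 4.48, 4.7 and 4.73 and 3.75, 4.28, 4.47, 7.62 and 8.85. SCC25 had 4.91, 5.01, 5.95, 5.36, 7.36 and 7.56 and 5.92, 6.59, 5.93, 7.08 and 7.39. In SCC1 all cetuximab libraries lay under all PBS libraries, and in SCC6 the highest values were those of cetuximab on days 4 and 5. ENO2 fell in SCC1 (log2 change -1.20 ± 0.17 (SE), edgeR adjusted p = 0.00011), with log2 changes of 0.15 ± 0.25 in SCC6 and 0.07 ± 0.13 in SCC25. The change differed between lines (adjusted p = 0.00051, edgeR's F test).

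Lactate dehydrogenase reduces pyruvate to lactate. LDHA in SCC1 stood at 1089, 914, 769, 824, 939 and 1027 CPM with PBS and 769, 718, 710, 779 and 672 with cetuximab. SCC6 gave 1093, 1073, 1278, 1138, 1115 and 983 and 1105, 931, 827, 634 and 607. SCC25 had 1310, 1235, 1139, 1156, 1312 and 1203 and 1016, 1017, 1158, 1249 and 1304. In SCC6, library 2a lay inside the PBS range and the libraries of days 4 and 5 far under it, while in SCC25 the cetuximab values went up with the days until they lay inside the PBS range. The cetuximab libraries of SCC25 on days 3 to 5 carry another run code than those of days 1 and 2, so run and day cannot be told apart there. LDHA fell in SCC1 (log2 change -0.28 ± 0.08 (SE), edgeR adjusted p = 0.0084) and in SCC6 (log2 change -0.46 ± 0.16 (SE), edgeR adjusted p = 0.047). The call in SCC6 was lost without 7 of the 10 libraries in turn and with the run code as a covariate. In SCC25 the change was log2 change -0.08 ± 0.08 (SE), edgeR adjusted p = 0.5.

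SLC16A3 (MCT4) exports lactate and SLC16A1 (MCT1) carries it both ways. SLC16A3 in SCC1 stood at 100, 115, 152, 176, 156 and 115 CPM with PBS and 71.6, 88.5, 94.5, 81 and 90 with cetuximab. The SCC6 libraries held 70.1, 67.2, 26.6, 30, 29.6 and 28.3 and 27.3, 31, 33.6, 57.6 and 45.3. SCC25 had 29, 29.1, 35, 33.9, 34.2 and 40.9 and 37.9, 38.7, 22.4, 34.2 and 35.3. The PBS libraries of SCC6 on days 0 and 1, which carry another run code than those of days 2 to 5, stood at 70.1 and 67.2, beside 26.6 to 30 for the rest. In SCC1 SLC16A3 fell (log2 change -0.73 ± 0.12 (SE), edgeR adjusted p = 0.00029) and SLC16A1 rose, from 267 ± 23.3 to 319 ± 23.6 CPM (log2 change 0.27 ± 0.07 (SE), edgeR adjusted p = 0.0083), but both calls were lost with the run code as a covariate and within the shared run. Neither carrier passed in SCC6 or SCC25, with log2 changes from -0.13 to 0.08. Only SLC16A1 of the pair differed between lines (adjusted p = 0.014, and 0.062 for SLC16A3, edgeR's F test).

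Pyruvate dehydrogenase kinases hold pyruvate back from the mitochondria. PDK1 in SCC1 stood at 18.7, 16.3, 15.2, 16.7, 16.8 and 17 CPM with PBS and 13.8, 12.4, 13.1, 11.8 and 11.6 with cetuximab. For SCC6 the values were 23.9, 23.6, 25.5, 27.4, 29.6 and 33.7 and 21.8, 18, 22.1, 14.1 and 15.2. SCC25 had 16.8, 15.7, 13.7, 17.3, 17.3 and 15.2 and 13.1, 14.2, 14.9, 14.8 and 14.7. The treatments did not overlap in SCC1 or SCC6, and in SCC6 the widest gap was on day 5. PDK1 fell in SCC1 (log2 change -0.38 ± 0.07 (SE), edgeR adjusted p = 0.00066) and SCC6 (log2 change -0.64 ± 0.15 (SE), edgeR adjusted p = 0.0082), with log2 change -0.15 ± 0.08 (SE), edgeR adjusted p = 0.19 in SCC25.

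PDK3 was the only one of the 36 genes that rose in SCC25. There it stood at 5.94, 5.82, 5.57, 5.27, 5.46 and 5.37 CPM with PBS and 7.24, 6.45, 6.47, 6.84 and 6.22 with cetuximab. SCC6 had 1.46, 2.4, 2.22, 1.81, 2.39 and 2.35 and 3.34, 2.57, 2.6, 2.57 and 2.77. SCC1 had 2.45, 1.65, 1.98, 1.85, 1.82 and 1.94 and 1.82, 1.28, 1.78, 1.59 and 1.32. In SCC25 and SCC6 no cetuximab library of days 1 to 5 was as low as a PBS library. PDK3 rose in SCC25 (log2 change 0.27 ± 0.08 (SE), edgeR adjusted p = 0.031), but lost the call without 5 of the 10 libraries in turn and with the run code as a covariate. The log2 change was 0.29 ± 0.15 in SCC6 and -0.24 ± 0.14 in SCC1, and it differed between lines (adjusted p = 0.013, edgeR's F test).

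Carbonic anhydrases IX and XII sit on the cell surface and help to dispose of acid. CA9, a common marker of hypoxia, was near the floor in all 3 lines. SCC1 had 2.53, 0.458, 0.135, 0.147, 0.36 and 0.839 CPM with PBS and 0.726, 0.292, 0.151, 0.441 and 0.144 with cetuximab. SCC6 had 0, 0, 0, 0, 0.0797 and 0.11 and 0, 0, 0, 0.0134 and 0, or 0 to 3 raw counts per library. SCC25 had 0.539, 0.23, 0.3, 0.261, 0.665 and 0.541 and 0.32, 0.332, 0.178, 0.516 and 0.646. The one value above 1 was SCC1 with PBS on day 0. CA9 did not pass in SCC1 (log2 change -0.12 ± 0.54 (SE), edgeR adjusted p = 0.88) or SCC25 (log2 change 0.01 ± 0.37 (SE), edgeR adjusted p = 0.99), and a change was not detectable at this depth.

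CA12 was set apart by line. SCC25 had 168, 162, 162, 156, 172 and 186 CPM with PBS and 156, 163, 159, 176 and 181 with cetuximab. SCC1 had 2.06, 2.24, 1.5, 0.987, 0.854 and 2.11 and 5.6, 6.87, 4.62, 5.32 and 4.65. SCC6 had 0.197, 0.218, 0.346, 0.386, 0.239 and 0.513 and 0.315, 0.223, 0.182, 0.134 and 0.0717. In SCC1 the lowest cetuximab library was above the highest PBS library, whereas SCC25 showed full overlap at a level far higher than that of the other lines. CA12 rose in SCC1 (log2 change 1.83 ± 0.25 (SE), edgeR adjusted p = 7.9e-05), the largest rise there, and its change in SCC25 was log2 change -0.01 ± 0.06 (SE), edgeR adjusted p = 0.93. In SCC6 it was left out for low counts, and tested without that filter its log2 change was -0.93 ± 0.42 (edgeR adjusted p = 0.18). The change differed between lines (adjusted p = 7.4e-07 by edgeR's F test).

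EGLN3 is a prolyl hydroxylase that marks HIF1A for destruction and is itself induced by HIF. In SCC1 it stood at 10.8, 11.8, 8.29, 8, 6.27 and 6.65 CPM with PBS and 15.3, 16.9, 18, 17.2 and 17.3 with cetuximab. SCC6 had 0.0843, 0.187, 0.0346, 0.154, 0.133 and 0.11 and 0.252, 0.544, 0.754, 0.735 and 0.875, or 1 to 6 raw counts with PBS and 8 to 61 with cetuximab. SCC25 had 4.03, 3.58, 3.21, 3.39, 3.92 and 5.55 and 3.98, 4.68, 4.2, 5.59 and 5.58. Every cetuximab library of days 1 to 5 lay above every PBS library in SCC1 and SCC6, and same-day comparison put cetuximab higher in 14 of 14 over the 3 lines. EGLN3 rose in SCC1 (log2 change 1.06 ± 0.15 (SE), edgeR adjusted p = 0.00011). In SCC6 it was left out for low counts, and without that filter the log2 change was 2.34 ± 0.42 (edgeR adjusted p = 0.0011). In SCC25 the change was log2 change 0.28 ± 0.16 (SE), edgeR adjusted p = 0.24, and the difference between lines was called (adjusted p = 0.00074, edgeR's F test).

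P4HA2, a subunit of the hydroxylase that matures collagen, was the other gene higher with cetuximab in 14 of 14 same-day comparisons. It stood in SCC1 at 44.9, 46.5, 48.8, 46.2, 41.3 and 48.7 CPM with PBS and 47.8, 61.7, 59.5, 61 and 63.9 with cetuximab. SCC6 had 46.1, 38.3, 36.5, 36.7, 33.9 and 30.5 and 42.7, 49.9, 57.5, 49.3 and 57.7. SCC25 had 95.9, 82.3, 81, 76.3, 85.7 and 88.4 and 85.6, 91, 92.6, 109 and 107. In SCC6 no cetuximab library of days 1 to 5 was as low as a PBS library, and in SCC1 the day 1 library alone lay inside the PBS range. P4HA2 rose in SCC1 (log2 change 0.35 ± 0.08 (SE), edgeR adjusted p = 0.0032), a call lost with the run code as a covariate, and in SCC6 (log2 change 0.53 ± 0.11 (SE), edgeR adjusted p = 0.0034), which kept the call under every other setting tried but a minimum size of 1 on the log2 scale. In SCC25 it was log2 change 0.23 ± 0.07 (SE), edgeR adjusted p = 0.051. P4HA1, the other catalytic subunit, passed in no line over days 1 to 5 (log2 changes 0.10, -0.27 and 0.03 in SCC1, SCC6 and SCC25).

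BNIP3 and BNIP3L are mitochondrial proteins that mark mitochondria for removal by autophagy. BNIP3 in SCC1 stood at 120, 85, 91.8, 96.6, 106 and 114 CPM with PBS and 75.1, 66.8, 60, 56.3 and 52.1 with cetuximab. SCC6 had 24.3, 19, 18.2, 18.4, 19 and 20.3 and 19.9, 19.7, 21.4, 17.5 and 18.4. SCC25 had 74.4, 58.8, 52.9, 60.7, 73.3 and 74.1 and 57.5, 53, 64, 72.2 and 70.4. Only in SCC1 were the treatments apart, and there the log2 ratio was -0.18 on day 1 and -1.13 on day 5. BNIP3 fell in SCC1 (log2 change -0.66 ± 0.10 (SE), edgeR adjusted p = 0.0002) while BNIP3L rose (log2 change 0.26 ± 0.09 (SE), edgeR adjusted p = 0.027), although the latter call was lost without 5 of the 10 libraries in turn and within the shared run. In the other two lines BNIP3 had log2 changes of 0.01 and -0.02 and BNIP3L of 0.15 and 0.18, none of which passed. BNIP3 has 39 pseudogene rows in the table, which took between 1.01 and 21.5% of its reads, so its level is less certain than that of most genes. The change of BNIP3 differed between lines (adjusted p = 0.00073, edgeR's F test).

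KDM3A, a histone demethylase induced by HIF, rose in SCC1 from 40.1 ± 1.9 to 49.5 ± 2.79 CPM without overlap (log2 change 0.31 ± 0.06 (SE), edgeR adjusted p = 0.00067), and had log2 changes of 0.28 in SCC6 and -0.01 in SCC25 that did not pass. NDRG1, a stress and differentiation gene, and ANKRD37 passed in no line. ANKRD37 was lower with cetuximab in 13 of 14 same-day comparisons, with log2 changes of -0.38, -0.48 and -0.24 in SCC1, SCC6 and SCC25.

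HIF1A encodes the subunit whose protein is set by oxygen, so its RNA is not a readout of its activity. In SCC1 it stood at 353, 380, 409, 558, 600 and 639 CPM with PBS and 400, 454, 534, 515 and 467 with cetuximab. SCC6 had 391, 383, 485, 489, 515 and 643 and 581, 566, 674, 541 and 604. SCC25 had 387, 406, 419, 519, 546 and 528 and 453, 497, 629, 620 and 635. The treatments overlapped in every line, and PBS values went up with the days in all of them. HIF1A did not pass in SCC1 (log2 change -0.11 ± 0.13 (SE), edgeR adjusted p = 0.52), SCC6 (log2 change 0.22 ± 0.12 (SE), edgeR adjusted p = 0.2) or SCC25 (log2 change 0.22 ± 0.11 (SE), edgeR adjusted p = 0.19). The difference between lines did not pass either (adjusted p = 0.24, edgeR's F test).

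Day by day, the median log2 ratio of cetuximab over PBS across the 36 genes was -0.09, -0.10, -0.12, -0.18 and -0.34 on days 1 to 5 in SCC1. In SCC6 it was -0.15 for the mean of 2a and 2b over the mean PBS of days 1 and 2, and -0.00, 0.06 and 0.01 on days 3, 4 and 5. SCC25 gave -0.08, -0.02, -0.17, -0.06 and -0.09, with the cetuximab libraries of days 3 to 5 on another run code than its PBS libraries. In SCC1, 27 of the 36 ratios were under 0 on day 5 and 21 on day 1, but only the PBS library of day 5 shares the run code of the cetuximab libraries, so the ratios of days 1 to 4 cross run codes and run and day cannot be told apart. In SCC6, 4 genes were at or under -1 and 3 at or above 1 on day 5, against none and 2 in the first ratio, and on day 5 18 ratios lay above 0 and 18 below. The difference between days 4 to 5 and days 1 to 3 was tested in each line, and 0 of the 36, 35 and 36 genes tested passed edgeR's test in SCC1, SCC6 and SCC25, where 0% of all genes passed. At an unadjusted p under 0.05 there were 5, 10 and 1 of them, beside 7.42%, 29.4% and 2.89% of all genes, so the share of the genes in SCC6 was near that of all genes. DESeq2 called 6 in SCC6 (14.8% of all genes) and 0 in SCC1 and SCC25. Within a period, edgeR called some changes that it did not call over days 1 to 5. On days 1 to 3 these included HIF1A (log2 change 0.39, adjusted p = 0.04) and SLC2A1 (-0.44, 0.03) in SCC6 and NDRG1 (-0.30, 0.029) in SCC1. On days 4 and 5 in SCC6 they included ENO2 (0.80, 0.016), PFKFB4 (1.89, 0.0058), P4HA1 (-0.48, 0.039) and CA12 (-1.80, 0.028), the last near the floor. The SCC6 libraries of days 4 and 5 with cetuximab carry a run code of their own, so run and period cannot be told apart there.

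**Figure D4:**
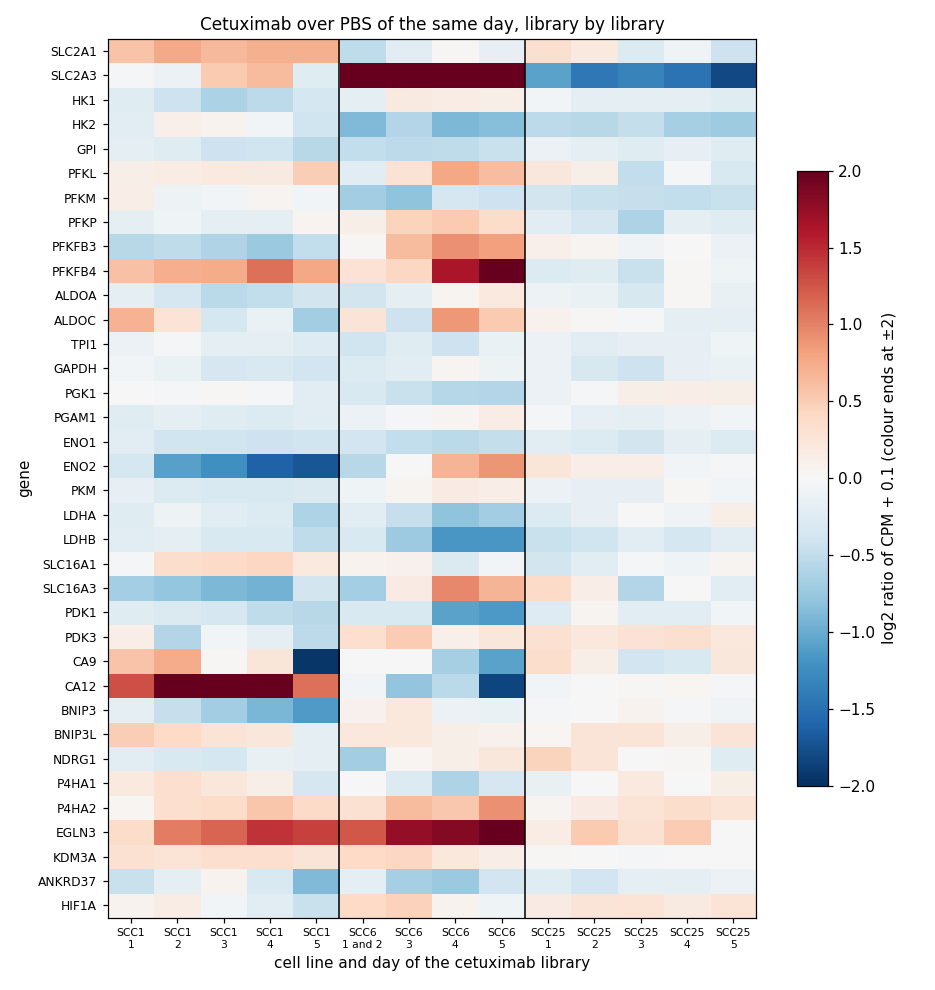
Log2 ratio of cetuximab over PBS of the same day (colour, pseudocount 0.1 CPM, ends at ±2) for the 36 genes (y axis) by line and day (x axis). The SCC6 column marked 1 and 2 is the mean of libraries 2a and 2b over the mean of PBS days 1 and 2. Rows of ENO1, GPI, LDHB and TPI1 are blue in all 14 columns, P4HA2 and EGLN3 red in all 14, and SLC2A3 changes colour between SCC6 and SCC25.

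The 6 PBS libraries of each line show how the genes drift in culture without drug. In SCC1 3 of 36 had a slope over days 0 to 5 that passed, 2 upward and 1 downward (2.49% of all genes, 1.71% upward and 0.777% downward). In SCC25 10 of 36 did, 9 upward and 1 downward (10.7% of all genes, 7.08% upward and 3.64% downward). In SCC6 19 of 34 did, 5 upward and 14 downward (32.7% of all genes, 13.9% upward and 18.8% downward). The SCC6 count depended on the libraries kept, as did that of all genes. It was 6 without the PBS library of day 0 (10.9% of all genes) and 10 without that of day 5. Among days 2 to 5 alone, which share a run code that days 0 and 1 do not have, it was 4 of 34 (7.9% of all genes). In SCC1 the count was 8 without day 5, the one library on another run code (8.38% of all genes). It was 1 without day 0 (0.53% of all genes), and 0 without day 1 or without day 4. All SCC25 PBS libraries share a run code, and there it was 7 to 10 without each library in turn.

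HIF1A alone rose with PBS in all 3 lines, by 0.19 ± 0.02, 0.13 ± 0.03 and 0.11 ± 0.02 log2 per day in SCC1, SCC6 and SCC25 (edgeR adjusted p = 0.014, 0.0068 and 0.0031). In SCC25 the genes that rose besides were SLC2A1, HK1, HK2, PFKL, PFKFB3, ENO2, SLC16A3 and NDRG1, with slopes from 0.08 to 0.17, and PFKFB4 fell (-0.21 ± 0.03, edgeR adjusted p = 0.0015). HK2 rose in SCC1 as well (0.12 ± 0.02, edgeR adjusted p = 0.03), where EGLN3 fell (-0.18 ± 0.04, edgeR adjusted p = 0.049). In SCC6 SLC2A3 rose most (0.45 ± 0.07, edgeR adjusted p = 0.0027), with LDHB, PDK1 and KDM3A, and PFKFB4 fell most (-0.57 ± 0.06, edgeR adjusted p = 0.00071). SLC2A3 thus went up over days with PBS and was higher again with cetuximab. LDHB and PDK1 were lower with cetuximab, and their rise with PBS was not called among days 2 to 5 alone. NDRG1 fell in SCC6 (-0.32 ± 0.02) and rose in SCC25 (0.13 ± 0.02), and HK1, PFKL and SLC16A3 likewise had slopes of opposite sign in these lines. Among the SCC6 libraries of days 2 to 5, which share a run code, the slope of NDRG1 was -0.31 ± 0.04 (edgeR adjusted p = 0.00027), of PFKFB4 -0.64 ± 0.10 and of SLC2A3 0.54 ± 0.08, all called. In the same libraries those of HK1, PFKL and SLC16A3 were -0.02 ± 0.04, 0.06 ± 0.04 and 0.02 ± 0.05, none of which passed, so the called slopes of these 3 genes in SCC6 rest on the libraries of days 0 and 1. HIF1A had 0.13 ± 0.04 there (edgeR adjusted p = 0.067). LDHB, PDK1 and KDM3A had 0.05 ± 0.04, 0.13 ± 0.04 and 0.11 ± 0.04 (edgeR adjusted p = 0.48, 0.093 and 0.1), none of which passed.

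**Figure D5:**
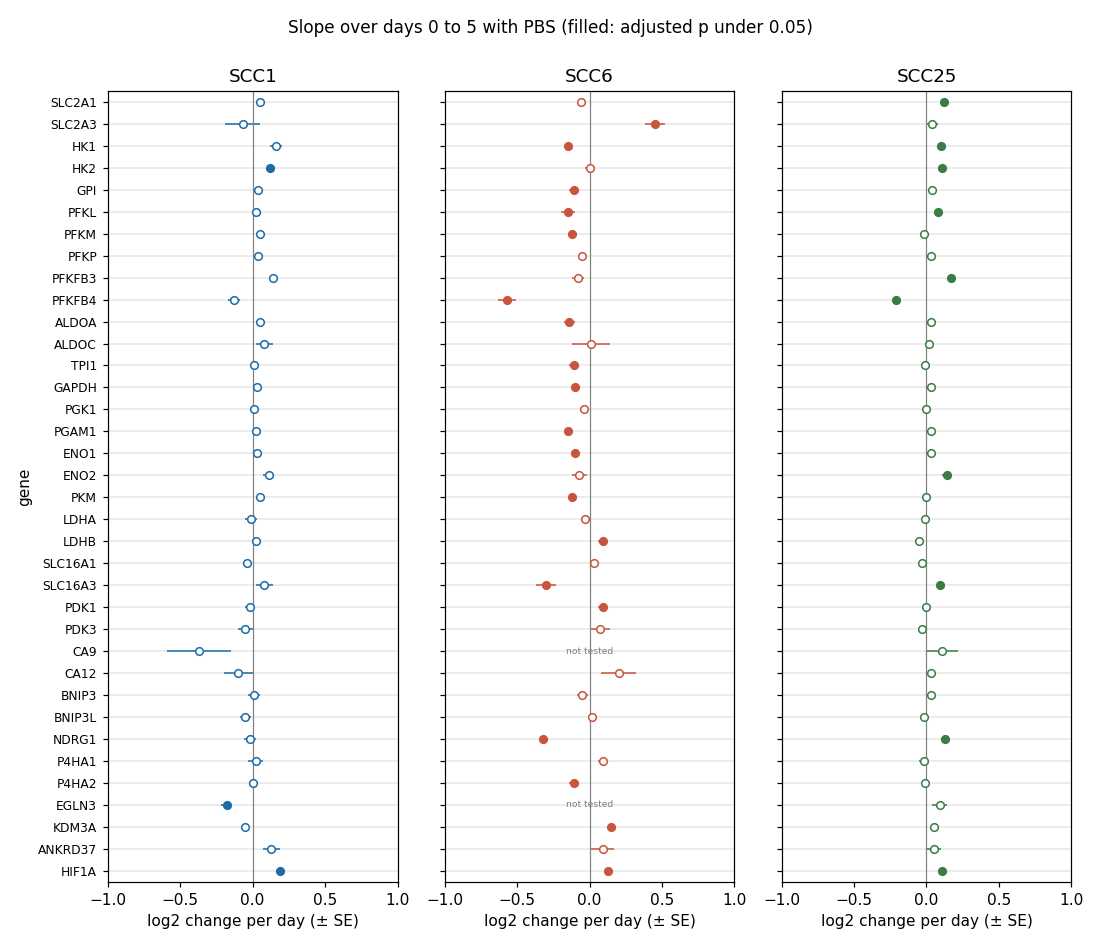
Slope over days 0 to 5 with PBS in log2 per day (x axis, ± SE) of the 36 genes (y axis) in SCC1, SCC6 and SCC25, from 6 libraries per line, with filled points for an adjusted p under 0.05. HIF1A is filled and right of 0 in all 3 panels, and 14 filled points lie left of 0 in SCC6.

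Without drug the lines also differed in level, as most genes do. Over days 1 to 5 with PBS, 24 of 36 genes differed between SCC1 and SCC25 (66.5% of all genes), 30 between SCC6 and SCC25 (69.9%), and 32 between SCC6 and SCC1 (66.6%). These 3 comparisons share their libraries with one another. SLC2A1 was highest in SCC6 (535 ± 58.5 CPM, SD, n = 5), and SCC25 (215 ± 35.3) and SCC1 (184 ± 15.6) did not differ beyond the test (adjusted p = 0.069 by edgeR). HK2 was ordered SCC6, SCC1, SCC25 (201 ± 16.8, 109 ± 14.4 and 54.9 ± 6.95 CPM), each step passing the test. GPI ran 427 ± 48.2, 290 ± 17.3 and 214 ± 10.2 CPM in SCC6, SCC25 and SCC1, again with each step called. ENO1 had the opposite extreme, with 2505 ± 83 in SCC25, 1641 ± 84.6 in SCC1 and 898 ± 100 in SCC6. SLC16A3 was highest in SCC1 (143 ± 27 CPM), with 36.3 ± 17.3 in SCC6 and 34.6 ± 4.2 in SCC25, a pair that did not differ (adjusted p = 0.77 by edgeR).

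Larger distances were found in a few genes. CA12 was at 168 ± 11.9 CPM in SCC25, 1.54 ± 0.63 in SCC1 and 0.341 ± 0.119 in SCC6. ALDOC ran 17.5 ± 2.11, 2.56 ± 0.529 and 0.5 ± 0.168 in the same order. EGLN3 was at 8.2 ± 2.19 in SCC1, 3.93 ± 0.944 in SCC25 and 0.124 ± 0.0574 in SCC6. SLC2A3 was close in SCC25 (6.18 ± 0.8) and SCC6 (5.52 ± 3.21), with no difference that passed (adjusted p = 0.72 by edgeR), and low in SCC1 (0.222 ± 0.07). HIF1A did not differ between any pair (517 ± 116, 503 ± 92.8 and 484 ± 65.7 CPM in SCC1, SCC6 and SCC25, edgeR adjusted p from 0.54 to 0.82).

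Other genes of these pathways, from lists that do not overlap the 36, were read in the same fits. Their counts stand against the background of SCC1 (22.7% of all genes upward, 22.1% downward), SCC6 (15.6% upward, 14.6% downward) and SCC25 (8.8% upward, 9.5% downward). Of the 8 pentose phosphate genes, 4 rose and 1 fell in SCC1, 2 rose and 1 fell in SCC6, and 1 of each did so in SCC25. H6PD, the hexose 6-phosphate dehydrogenase of the endoplasmic reticulum, was the largest rise in all 3 lines (log2 change 1.38 ± 0.15, 1.03 ± 0.20 and 0.29 ± 0.07 in SCC1, SCC6 and SCC25, edgeR adjusted p = 1.6e-05, 0.0026 and 0.014). RPIA, the ribose 5-phosphate isomerase, was the fall in all 3 (-0.29 ± 0.07, -0.84 ± 0.09 and -0.31 ± 0.06, edgeR adjusted p = 0.0064, 7.2e-05 and 0.0061). The summed pentose phosphate genes stood at 984 to 1230 CPM with PBS and 1464 to 1787 with cetuximab in SCC1, and overlapped in SCC6 (802 to 939 and 897 to 1163) and SCC25 (956 to 1090 and 879 to 1076).

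Of 20 tested genes in the rest of glycolysis and pyruvate metabolism, 5 rose and 2 fell in SCC1, 4 rose and 3 fell in SCC6, and 1 rose and 3 fell in SCC25, so that 5 of 20 upward in SCC1 and 3 of 20 downward in SCC6 are near those shares. The largest rises were SLC2A12, a further glucose carrier, in SCC1 and SCC25 (1.44 ± 0.25 and 1.75 ± 0.22), and SLC2A6 in SCC6 (1.12 ± 0.23). Falls were led by PDP1, DLAT and HKDC1 at -0.59, -0.45 and -0.42 in SCC1, SCC6 and SCC25. Of the 9 glycogen genes, 4 rose and 3 fell in SCC1 (UGP2 0.31, PPP1R3B -0.78). Of the 8 tested in SCC6, 3 rose and 1 fell (PPP1R3B 0.69, GYG1 -0.49), and in SCC25 1 rose and 1 fell (the fall was PYGB, -0.47). Of the oxygen sensing genes, 6 of 10 rose and none fell in SCC1, led by CITED2 (0.69 ± 0.12), 3 of 11 rose and 1 fell in SCC6 (EPAS1 0.77 ± 0.20, ARNT2 -1.74 ± 0.22), and 1 of 11 rose in SCC25 (EGLN1 0.25 ± 0.07). Among the glucose sensing genes 1 of 4 fell in SCC1 (MLX, -0.41), 2 of 5 in SCC6 (led by ARRDC4, -0.70) and none of 5 in SCC25.

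The remaining hypoxia genes moved both ways. In SCC1 8 of 31 rose and 9 fell, in SCC6 5 of 29 rose and 6 fell, and in SCC25 3 of 31 rose and 4 fell, beside the shares of all genes given above. ANGPTL4, a secreted lipase inhibitor, was the deepest fall in SCC1 (18.2 ± 4.26 to 1.68 ± 0.749 CPM, log2 change -3.43 ± 0.29, edgeR adjusted p = 3e-06) and SCC6 (-1.74 ± 0.37, edgeR adjusted p = 0.0048), and STC2 in SCC25 (-0.67 ± 0.08). Rises were led by MIR210HG in SCC1 (0.99), LOX in SCC6 (1.43 ± 0.23) and ADM in SCC25 (0.47 ± 0.12). The summed levels of this list overlapped between treatments in SCC1 (1859 to 2221 with PBS and 1652 to 1862 with cetuximab) and in SCC25, and did not in SCC6 (3232 to 3525 and 2686 to 2997). GPRC5A, singled out after its values were seen, fell in SCC6 from 1613 ± 204 to 909 ± 225 CPM (log2 change -0.85, edgeR adjusted p = 0.0031). Without GPRC5A the sums overlapped (1647 to 2026 and 1562 to 2086).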

How the data were processed

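Bulk RNA from 3 HNSCC lines with PBS or cetuximab was measured in 33 libraries. The authors inferred transcript levels with Salmon 0.8.2, per the submitters' processing notes, and imported them with tximport. The deposited values are estimated counts per gene symbol, not normalised between libraries. The builds named are hg19 and GRCh37. The annotation is not given in the sources used here, nor is the strand setting.

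Estimated counts were rounded. R 4.3.3 was used, with edgeR 4.0.16 (filterByExpr, TMM, quasi-likelihood F test, two-sided, Benjamini-Hochberg over all genes) and DESeq2 1.42.0 as an alternative. CPM use TMM factors over all 33 libraries, and single-day ratios add 0.1 CPM. Totals ran from 28508758 to 80727478 counts per library on days 1 to 5. The fits were tested on simulated data.

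The genes and the lists beside them were chosen with earlier results of these data known. Values in every library are given for genes called in all 3 lines, the 3 largest called rises and falls per line, genes with opposite calls, and SLC2A1, LDHA, CA9 and HIF1A. From each other list the largest called rise and fall per line are named, apart from an item that is not reported here.

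The day in the labels pairs libraries of a line. After the treatment means were removed, the same-day correlation across genes was 0.06 to 0.21 in SCC1, 0.12 to 0.26 in SCC25 and -0.07 to 0.25 on days 3 to 5 in SCC6. Alternatives were the day as a block, DESeq2, its size factors, no filter, the run code as a covariate, one run only, day 0 added, a minimum size, and each library left out. A fit corrected for GC content (GENCODE on GRCh37, 34694 symbols matched and 1359 more by an older symbol, of 56470) and PBS slopes within one run were added after seeing the data.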

Additional observations from a re-analysis of the deposited data

Results flagged for a closer look

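In 202 groups of 5 libraries of 1 gene, line and treatment on days 1 to 5, 16 had a highest or lowest library far from the rest of its group (Dixon's ratio). Chance gives about 1 group in 20. The PBS library of SCC6 on day 1 held 7 of them. SLC2A1 stood there at 635 CPM (the others at 480 to 523), HK1 at 154 (119 to 124), PFKL at 76.4 (42.4 to 50.5), PFKP at 261 (224 to 232) and SLC16A3 at 67.2 (26.6 to 30), all high, whereas SLC16A1 at 201 (229 to 239) and P4HA1 at 29.6 (40.2 to 44.3) were low. That library carries another run code than the rest of its group, and so does PBS of day 0, at 573, 197, 70.7, 250, 70.1, 210 and 32.2 CPM for the same 7 genes.

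The cetuximab library of SCC25 on day 3 held 5, all low. GPI stood there at 226 CPM (the others at 255 to 264), PFKP at 65.9 (85.6 to 90.3), ALDOA at 740 (971 to 1060), GAPDH at 2140 (2556 to 2638) and SLC16A3 at 22.4 (34.2 to 38.7). GAPDH was at 3222 in the PBS library of SCC25 on day 2 (2824 to 2877). The other 3 were PDK3 in SCC6 library 2a at 3.34 (2.57 to 2.77), P4HA2 in SCC1 with cetuximab on day 1 at 47.8 (59.5 to 63.9), and ANKRD37 in SCC6 library 2b at 2.37 (1.26 to 1.51).

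For 15 genes the change with cetuximab differed between the lines by edgeR's F test in the joint fit. The adjusted p was 7.2e-05 for SLC2A1, 3.9e-07 for SLC2A3, 0.035 for HK1, 0.0048 for HK2, 0.00023 for PFKM, 0.00021 for PFKP and 0.0012 for PFKFB3. It was 0.003 for PGK1, 0.00051 for ENO2, 0.038 for LDHB, 0.014 for SLC16A1 and 0.013 for PDK3. For CA12, BNIP3 and EGLN3 it was 7.4e-07, 0.00073 and 0.00074.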

How the results depend on the processing

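No called change with cetuximab turned its direction under any alternative run. Of the called PBS slopes in SCC6, those of PFKL and SLC16A3 (-0.15 and -0.30) were 0.06 and 0.02 within run D, and with GC trends removed those of PFKL, GPI, ALDOA and GAPDH (-0.15, -0.11, -0.14 and -0.10) were 0.08, 0.01, 0.01 and 0.01. The count of genes changed with cetuximab moved within run C in SCC1 (15), with GC trends removed in SCC6 (20), and in SCC25 with the run code as a covariate (5) or the day as a paired block (14). The block moved no other count by over 1.5 times, though it ended the calls of PFKP and PFKFB3 in SCC6. With GC trends removed the share of all genes called in SCC6 was also higher, at 47.6% beside 30.1%. In SCC25 12 of 36 genes changed with GC trends removed, beside 34.7% of all genes, so their share was near the background there. In SCC1 26 of 36 did, beside 53.2% of all genes. With a log2 size of at least 1 as well, 3, 1 and 1 remained in SCC1, SCC6 and SCC25, 5 for the difference between lines, and 8, 14 and 13 for PBS of SCC1 against SCC25, SCC6 against SCC25 and SCC6 against SCC1. With the run code as a covariate 9 genes differed between lines (14.4% of all genes). The difference by period gave 1 gene in SCC1 without the filter (0.53% of all genes). In SCC6 it gave 6 by DESeq2 (14.8% of all genes) and 8 without the filter (8.78%). PBS slopes gave 5 in SCC1 by DESeq2 (7.8% of all genes), 1 with days 1 to 5 only (0.53%) and 8 within run B (8.38%). In SCC6 they gave 6 with days 1 to 5 only (10.9%) and 4 within run D (7.9%). Leaving out each library gave 22 to 26, 9 to 16 and 5 to 10 changed genes in SCC1, SCC6 and SCC25, 0 to 4 by period in SCC6, slopes of 0 to 8, 6 to 20 and 7 to 10, and 13 to 21 for the difference between lines. The causes were not tested. The letters B, C and D stand for run codes in the sample titles. Days stand in for replicates, the SCC1 treatments share a run code in 1 PBS library only, and genes under about 1 CPM could show only very large changes.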

Other observations

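Some genes from the lists beside the 36 stood out and were chosen after their values were seen. ADM, the adrenomedullin peptide gene, rose in all 3 lines, from 13.8 ± 0.661 to 23.6 ± 2.66 CPM in SCC1, from 27.1 ± 4.59 to 73.6 ± 16.1 in SCC6 and from 68 ± 11 to 94.4 ± 12.5 in SCC25 (SD, n = 5 each, edgeR adjusted p = 1.2e-05, 0.00013 and 0.018). VEGFA, the main angiogenic growth factor, fell in SCC1 (305 ± 40.5 to 118 ± 25.9 CPM, edgeR adjusted p = 1.2e-05) and SCC25 (313 ± 46.1 to 205 ± 16, edgeR adjusted p = 0.0014), and had a log2 change of -0.33 ± 0.19 in SCC6 (edgeR adjusted p = 0.22). LOX, which crosslinks collagen, fell in SCC1 (log2 change -0.61 ± 0.13, edgeR adjusted p = 0.0017) and rose in SCC6 (1.43 ± 0.23, edgeR adjusted p = 0.00086). EPAS1, the HIF2 alpha subunit, rose in SCC1 (0.57 ± 0.09, edgeR adjusted p = 0.00032) and SCC6 (0.77 ± 0.20, edgeR adjusted p = 0.013), with -0.02 ± 0.06 in SCC25. The differences between lines of these genes were not tested.

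Of the pentose phosphate enzymes, TKT, the transketolase that links this pathway to glycolysis, rose in SCC1 (500 ± 61.6 to 822 ± 74.5 CPM, edgeR adjusted p = 3.6e-05), with log2 changes of 0.27 ± 0.10 in SCC6 and -0.21 ± 0.09 in SCC25 that did not pass. In SCC1 9 of the 15 glycolytic enzymes fell, beside 22.1% of all genes. Of these falls, the calls of HK1, GAPDH and PKM were lost with the run code as a covariate. The rise of TKT was not checked against the run code, and a link between it and the falls was not tested.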
